A study of Macaca mulatta with 12 samples.

Results

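The members described here are T cell receptor beta (TRB) clonotypes whose CDR3 holds a cysteine besides the one it starts with. The CDR3 is the loop made where a V, a D and a J gene are joined, and a clonotype is 1 distinct CDR3 nucleotide sequence with its V and J gene in 1 library. A clonotype was taken as productive when its translated CDR3 was in frame, had no stop codon and started with cysteine. In the 8 libraries taken after infusion, 1132 of 199660 productive clonotypes (0.567%), out of 218161 clonotypes in all, had at least 1 further cysteine. They were 1081 distinct nucleotide sequences and held 6051 counts and 1159 internal cysteines.

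The libraries came from peripheral blood mononuclear cells. The animals were rhesus macaques (Macaca mulatta) given apoptotic donor leukocytes (ADLs), white cells of a donor that a crosslinker had driven into cell death. Per the study, these were male, nondiabetic and nontransplanted animals, MHC class I-disparate from the donor with 1 DRB match, and all had transient immunosuppression with an anti-CD40 antibody, rapamycin, tocilizumab and etanercept. The first infusion was on day −7. The series text puts the second on day +1, while a legend of the study gives day 0. The animals carry the names Amazo, Nebula and Rocket, with libraries at day −5 (2 days after the first infusion, n = 3), day −4 (3 days after it, n = 3), day 0 (7 days after it, Nebula) and day +3 (2 days after the second infusion, Amazo). The 4 baseline libraries carry other animal names, so that baseline and animal cannot be told apart, and no age or genotype is in the labels. Every library holds TRB transcripts alone, so the labelled cell type could not be checked against its markers.

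The V gene gives the CDR3 its conserved first cysteine, the J gene its conserved last phenylalanine, and the middle is made by trimming the gene ends and adding random bases. A further cysteine is rare in mature repertoires. In mouse and human work, an unpaired cysteine near the tip of the loop has been linked to strong self-reactivity and to loss or diversion of the cell in the thymus.

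Depth ran from 42695 counts (Nebula day −4) to 556954 counts (Rocket day −5) in the post-infusion libraries and from 63 to 74 counts at baseline. Some libraries did not share clonotypes in the way their names would give. Amazo day −4 shared 2 members with Amazo day −5 and at most 1 with any other library. Amazo day −5 shared 15 members with Rocket day −4, which were 8.88% of the former and 10.2% of the latter, and 8 with Rocket day −5. Other productive clonotypes had the same order, with 2491 shared between Amazo day −5 and Rocket day −4 and 255 between Amazo day −5 and day −4. The libraries of a name are thus not independent samples, and the names not fully separate ones. Results that rest on the names are given with each name left out where that changes them.

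The first set holds 5 of the 10 members with the highest share of a library and, last, the sequence found under 3 animal names, since later results return to them. They are written 5′ to 3′ from the conserved cysteine codon to the last codon of the CDR3, with the internal cysteine codons in capitals. Positions in the CDR3 are counted from 1 at the conserved cysteine.
TRBV7-7/TRBJ2-1, cysteine at position 9: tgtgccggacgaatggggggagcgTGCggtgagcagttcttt
TRBV5-6/TRBJ2-4, cysteines at positions 5 and 10: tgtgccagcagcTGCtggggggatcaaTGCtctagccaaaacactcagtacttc
TRBV23-1/TRBJ2-7, cysteine at position 4: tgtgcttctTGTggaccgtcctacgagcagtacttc
TRBV7-3/TRBJ2-4, cysteine at position 7: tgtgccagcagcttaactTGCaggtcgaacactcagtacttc
TRBV5-1/TRBJ2-7, cysteine at position 5: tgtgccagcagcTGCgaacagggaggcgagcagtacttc
TRBV3-3/TRBJ2-6, cysteine at position 10: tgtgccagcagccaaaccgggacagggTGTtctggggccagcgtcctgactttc

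The sequences of the genes used more among members follow, each with an abundant clonotype of the same gene that has no internal cysteine. Capitals mark the cysteine codon in a member and the codon at the matched place in the other clonotype, which is the third of the CDR3 for TRBV30 and the seventh from its end for the J genes.
TRBV30 member, Nebula day 0: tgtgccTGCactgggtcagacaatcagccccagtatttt
TRBV30 member, Amazo day −4: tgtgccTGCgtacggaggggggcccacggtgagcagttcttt
TRBV30 member, Nebula day −5: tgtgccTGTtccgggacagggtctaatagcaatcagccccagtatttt
TRBV30 clonotype without an internal cysteine: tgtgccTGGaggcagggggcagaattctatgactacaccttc
TRBJ2-4 member: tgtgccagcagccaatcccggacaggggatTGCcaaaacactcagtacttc
TRBJ2-4 clonotype without an internal cysteine: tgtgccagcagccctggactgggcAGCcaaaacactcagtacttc
TRBJ2-3 member: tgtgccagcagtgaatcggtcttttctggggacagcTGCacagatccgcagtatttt
TRBJ2-3 clonotype without an internal cysteine: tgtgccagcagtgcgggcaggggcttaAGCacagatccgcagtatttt

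Of the members 1 base away from a clonotype with at least 10 times the count in the same library, these 2 pairs show the serine and the phenylalanine codon that the larger clonotype has in place of the cysteine codon. Capitals mark that codon.
TRBV23-1/TRBJ2-7, 9 counts: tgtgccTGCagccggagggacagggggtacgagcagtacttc
its larger neighbour, 145 counts: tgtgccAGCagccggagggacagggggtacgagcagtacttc
TRBV2-3/TRBJ1-1, 2 counts: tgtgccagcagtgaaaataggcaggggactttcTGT
its larger neighbour, 28 counts: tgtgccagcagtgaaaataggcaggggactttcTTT

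Members were below 1% of productive clonotypes in every library, and a smaller share of its counts. In Amazo they were 0.522% of productive clonotypes at day −5 (169 members), 0.663% at day −4 (157) and 0.495% at day +3 (113). In Nebula they were 0.693% at day −5 (190), 0.345% at day −4 (59) and 0.666% at day 0 (186). In Rocket they were 0.739% at day −5 (111) and 0.442% at day −4 (147). The lowest share was in Nebula day −4, the library with the fewest counts. Averaged over libraries within a name and then over names, the share was 0.573% ± 0.0159 (SD, n = 3). Members held 0.246% ± 0.0610 of productive counts, from 0.177% in Rocket day −5 to 0.364% in Nebula day 0. In bulk RNA, fewer cells and less TRB RNA per cell cannot be told apart. At baseline 0 of 156 productive clonotypes had an internal cysteine, which allows a share of up to 1.92%, above every post-infusion value, so that no difference from baseline was detectable at this depth.

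**Figure D1:**
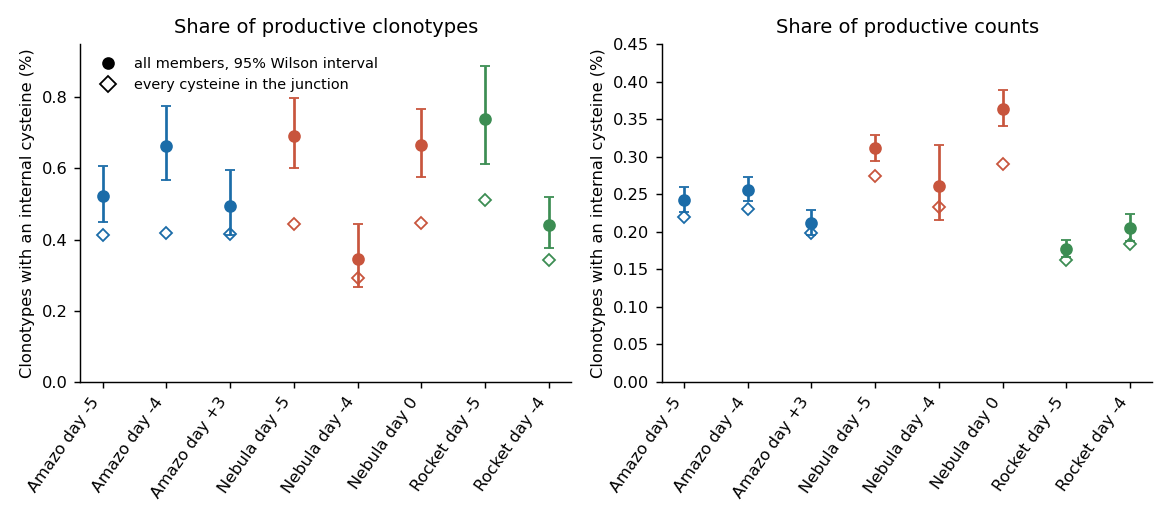
Share of productive clonotypes and of productive counts with an internal cysteine (%) in each of the 8 post-infusion libraries, with 95% Wilson intervals that cover counting error only. The share of clonotypes lies between 0.345% and 0.739%, and in every library it is above the share of counts.

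From day −5 to day −4 the share of clonotypes was higher in Amazo and lower in Nebula and Rocket. It differed by 0.142 percentage points in Amazo, −0.348 in Nebula and −0.297 in Rocket (day −4 minus day −5), with a mean of −0.168 (n = 3 pairs, exact two-sided sign-flip permutation p = 0.5). As a share of counts it differed by 0.0141 in Amazo, −0.0508 in Nebula and 0.0282 in Rocket, with a mean of −0.00285 (exact permutation p = 1). With a name left out in turn, the mean ranged from −0.322 to −0.0776 for clonotypes and from −0.0184 to 0.0211 for counts. The Amazo libraries of these days shared few clonotypes, as given above, so this pairing rests on the labels alone. With 3 names no exact permutation test of this kind can go below p = 0.25. The sign in Amazo depended on the rarest clonotypes. Among clonotypes of at least 2 counts the share of members was lower at day −4 in all 3 names, with a mean difference of −0.0772 percentage points (exact permutation p = 0.25, the smallest possible). The mean was −0.0515 with every library thinned to 42695 counts and −0.0760 without clonotypes 1 base from one of at least 10 times the count, each with an exact permutation p of 0.25. With 3 names none of these settings could pass a threshold of 0.05.

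Members were rarer transcripts than other productive clonotypes in every library. The mean count of a member was 4.78 in Amazo day −5, 6.03 in Amazo day −4, 5.44 in Amazo day +3, 6.54 in Nebula day −5, 1.80 in Nebula day −4, 4.75 in Nebula day 0, 8.46 in Rocket day −5 and 3.47 in Rocket day −4. For other productive clonotypes it was, in the same order, 10.3, 15.7, 12.8, 14.6, 2.38, 8.72, 35.5 and 7.49. The mean of the members was the lower one in every library. On the log2 scale the ratio of the means averaged −1.21 ± 0.39 (SD, n = 3 names) and was below 0 in 8 of 8 libraries (exact sign-flip permutation p = 0.25 over 3 names, the smallest possible, and 0.0078125 over 8 libraries taken as separate).

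Clonotypes seen once made up part of the difference. Among clonotypes of at least 2 counts the log2 ratio of the mean counts was −0.69 (exact permutation p = 0.25). Of the members, 506 (44.7%) had 1 count, from 26.5% in Amazo day +3 to 57.6% in Nebula day −4. Of the other productive clonotypes, between 7.99% (Nebula day 0) and 42.2% (Nebula day −4) had 1 count. The difference averaged 31.1 percentage points (SD 2.00, n = 3 names, exact permutation p = 0.25) and was positive in 8 of 8 libraries. Summed over libraries, members were 1.93% of productive clonotypes with 1 count, 0.376% of those with 2 to 9, 0.334% of those with 10 to 99 and 0.142% (1 of 706) of those with 100 or more. Among clonotypes of at least 2 counts the share was 0.373%, 0.356% and 0.395% in Amazo at day −5, day −4 and day +3, 0.369%, 0.253% and 0.374% in Nebula at day −5, day −4 and day 0, and 0.416% and 0.318% in Rocket at day −5 and day −4. Without clonotypes of 1 count, the 8 libraries thus lay closer together than with them.

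**Figure D2:**
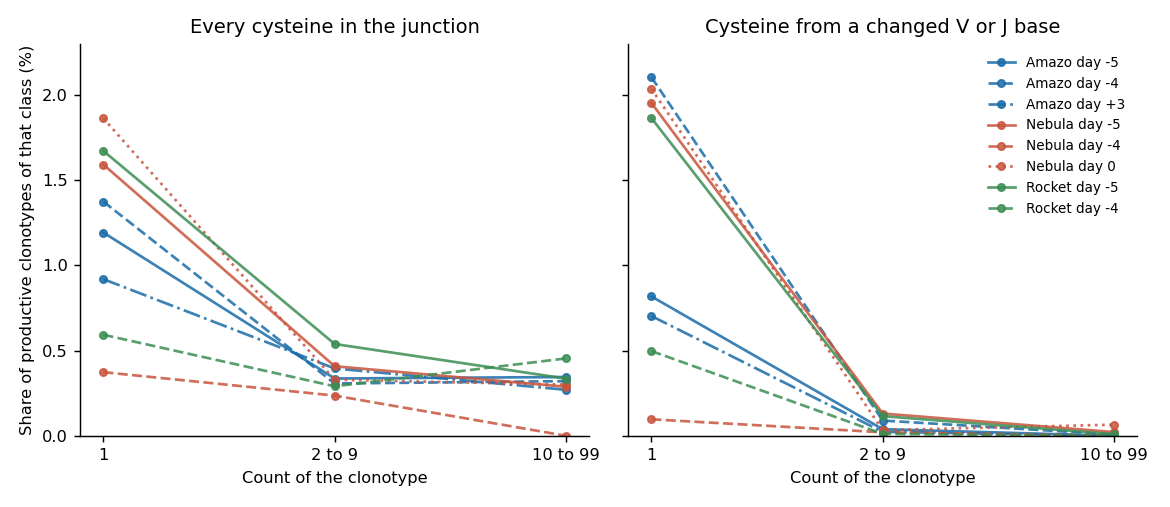
Share of productive clonotypes with an internal cysteine (%) by count class (1, 2 to 9 and 10 to 99 counts). Each line is 1 of the 8 post-infusion libraries, with members whose every cysteine is in the junction beside those with a substituted cysteine. The substituted kind lies between 0.0968% (Nebula day −4) and 2.10% (Amazo day −4) at 1 count. At 2 to 9 counts it lies between 0.0112% (Rocket day −4) and 0.131% (Nebula day −5).

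The internal cysteines were of 2 main kinds. A junction cysteine has a codon that lies at least partly outside the aligned V and J bases, and 843 of 1159 (72.7%) were of this kind. A substituted cysteine lies wholly within aligned V or J bases, where 1 or more bases differ from the gene, and 303 (26.1%) were of this kind. The remaining 13 lay in alignments with an insertion or deletion or were in the segment itself. Of the junction cysteines 30.6% were in clonotypes with 1 count, against 82.2% of the substituted ones. The lowest base quality in the codon averaged 36.3 for junction and 31.8 for substituted cysteines, and it was below 30 in 36.0% of the substituted codons. The lowest quality elsewhere in the same CDR3s averaged 35.0 and 30.5. Quality also went with count. In other productive clonotypes the lowest CDR3 quality averaged 29.45 to 30.5 by library at 1 count and 35.6 to 37.9 at 2 or more. The quality of the kinds was not compared at like counts. The part of read quality in the rarity of the members was not tested.

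Members with a junction cysteine alone gave the same direction with smaller differences. Their share of productive clonotypes was 0.413% ± 0.0167 (SD, n = 3 names), from 0.292% in Nebula day −4 to 0.513% in Rocket day −5. Their share with 1 count was higher than that of other productive clonotypes by 18.6 percentage points (mean of 3 names), and the log2 ratio of the mean counts was −0.93.

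The substituted cysteines stood at few residues. In J, 201 cysteines had a changed base and replaced phenylalanine 110 times, tyrosine 79 times and serine 12 times. In V, 102 had a changed base and replaced serine 100 times. The codon change was from TTT to TGT in 73 cases, where the lowest base quality in the codon averaged 25.2, and from TTC to TGC in 37, with 25.8. The change from AGC to TGC in V occurred 76 times, with an average of 36.3. The cysteine codons in place of phenylalanine were thus read with lower quality than those in place of serine.

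Members lay next to a much larger clonotype more often than other productive clonotypes did when all counts were taken, and by less when counts were held alike. Of the 1159 internal cysteines, 220 (19.0%) were in a member 1 base away from a clonotype of the same length with at least 10 times the count, at a median fold of 14. The share was 38.6% for substituted and 12.2% for junction cysteines. It ranged from 0% in Nebula day −4 to 38.3% in Nebula day −5, and it was 35.4% in Amazo day −4 and 35.1% in Rocket day −5. The difference in share between members and other productive clonotypes averaged 14.7 percentage points (SD 0.406, n = 3 names, exact permutation p = 0.25) and was positive in 7 of 8 libraries. It was 3.95 points among clonotypes with 1 count (exact permutation p = 0.75) and 1.12 points among those with at least 2 (exact permutation p = 0.25). For a neighbour of at least 100 times the count the difference was exactly 0, as when no clonotype has such a neighbour. That setting could therefore not show a difference. In the 114 pairs of the substituted kind that differ in the cysteine codon, the larger clonotype had phenylalanine 41 times, tyrosine 37 times and serine 36 times. The pairs printed above show a serine and a phenylalanine codon.

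The cysteines were most frequent shortly after the start of the loop. Counted from the start, 166 were at position 3 and 191 at position 4, against 83 at position 6 and 86 at position 9. Counted from 1 at the last residue, 140 were at position 10, 138 at position 7 and 131 at position 11, and 7 at position 4. The last residue held 99, of which 84 were in clonotypes with 1 count, and the last but 1 held 81, of which 68 were. Junction cysteines alone had 100 at position 3 and 159 at position 4. Serine preceded 225 of the junction cysteines and alanine 133, while glycine followed 125 and arginine 109. The codon was TGC in 465 junction cysteines and TGT in 378.

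**Figure D3:**
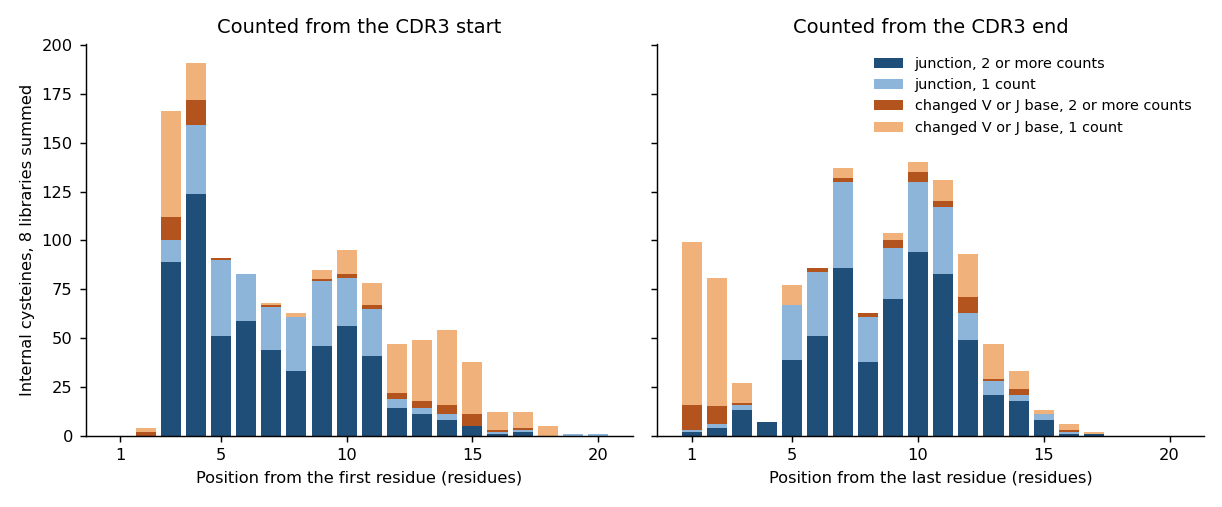
Number of internal cysteines by position in the CDR3, counted from the first residue and from the last, for junction and substituted cysteines of the 8 post-infusion libraries. Positions 3 and 4 hold 166 and 191 cysteines, and the last residue holds 99.

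Whether cysteines lay near the centre of the loop, the stretch that usually faces the peptide, depended on which cysteines and positions were compared. Between 29.1% (Amazo day −4) and 39.9% (Rocket day −4) of the internal cysteines lay within 2 residues of the centre, against 32.0% to 34.0% of all internal positions of the same CDR3s. The difference averaged 1.5 percentage points (SD 2.69, n = 3 names, exact permutation p = 0.5) and was positive in 5 of 8 libraries. It was 5.73 points among clonotypes of at least 2 counts and 12.3 points for junction members, each against all internal positions (exact permutation p = 0.25, the smallest possible). Junction cysteines lay there in 35.8% to 50.0% of cases by library, while 58.0% to 65.6% of the junction positions of the same members did. Against junction positions the mean difference was therefore −17.5 percentage points (exact permutation p = 0.25, the smallest possible), in the other direction.

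Mean CDR3 lengths of members and other productive clonotypes were close. Their mean CDR3 length was between 14.3 residues (Nebula day −5) and 14.9 residues (Nebula day 0), and that of the others between 14.4 and 14.6. The difference averaged 0.138 residues (SD 0.10, n = 3 names, exact permutation p = 0.25) and was positive in 6 of 8 libraries. The share of members was higher at both ends of the length range. Summed over the 8 libraries, it was 1.31% at 10 residues, 0.659% at 11, 0.861% at 12, 0.465% at 14, 0.457% at 15, 0.882% at 18 and 1.62% at 20. The Wilson intervals of the shares at 10 and at 20 residues, 0.830% to 2.06% and 0.968% to 2.70%, lay above that at 15 residues, 0.400% to 0.521%. These intervals cover counting error only and pool clonotypes of libraries that share sequences. They are given as a description, since clonotypes are not replicates.

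A pair of internal cysteines was found in 27 members and 3 or more in none. In 10 of the 27 the cysteines were neighbours, and in 7 they were 5 residues apart. The largest of these was the TRBV5-6/TRBJ2-4 clonotype printed above, with 24 counts in Nebula day −5, 62 in Nebula day 0 and 0 in the other 6 libraries.

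Cysteine codons were far less frequent in productive junctions than in junctions that cannot make a receptor. Rearrangements out of frame are still transcribed but encode no receptor chain. Over clonotypes of at least 2 counts and 8 to 20 residues, cysteine codons were counted in the V reading frame among the codons that end before the first aligned J base and are not wholly in aligned V. In productive clonotypes 443 of 743319 such codons, 0.596 per 1000, were cysteine (95% Wilson interval 0.543 to 0.654). In out-of-frame clonotypes 326 of 45410, 7.18 per 1000, were (6.44 to 8.0). In-frame clonotypes with a stop codon had 30 of 2607, 11.5 per 1000 (8.07 to 16.4). By library the productive rate ran from 0.402 to 0.766 and the out-of-frame rate from 5.68 to 8.73 per 1000, and the intervals did not overlap in any library. The out-of-frame rate was between 8.63 times (Rocket day −5) and 21.7 times (Nebula day −4) the productive one.

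Cysteine was the rarest of the 20 residues in productive junctions, with 0.0596% of codons, and after methionine the rarest in out-of-frame junctions, with 0.718%. Tryptophan, whose codon differs from those of cysteine in the last base, was 2.48% of productive and 2.35% of out-of-frame codons. Methionine was 0.757% and 0.650%, tyrosine 1.71% and 1.24%, phenylalanine 2.08% and 2.22%, arginine 10.5% and 12.8%, and glycine 25.9% and 23.0%. Histidine, at 1.03% and 1.70%, and lysine, at 1.78% and 2.45%, were also less frequent in productive junctions. The difference for cysteine was thus of another size than for these residues. These rates are given as a description, since codons of a clonotype are not replicates.

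**Figure D4:**
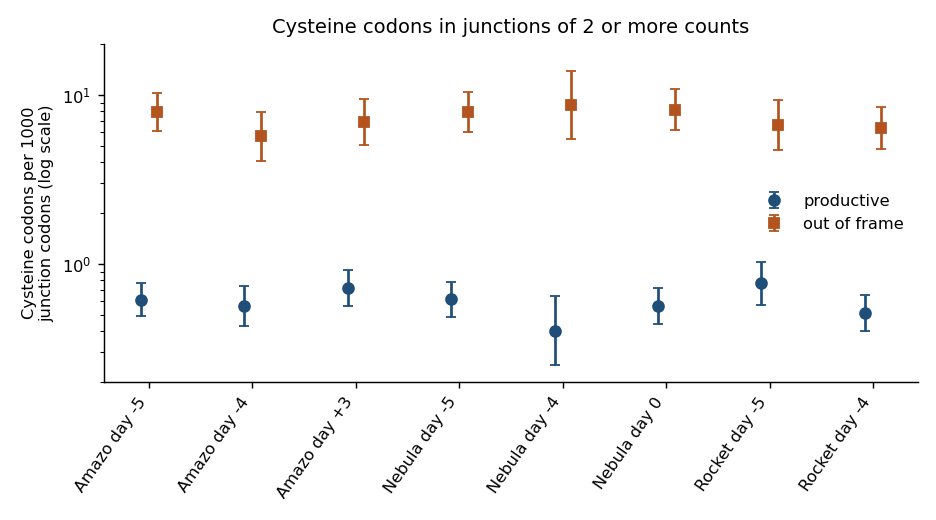
Cysteine codons per 1000 junction codons (log axis) in productive and out-of-frame clonotypes of at least 2 counts in each of the 8 post-infusion libraries, with 95% Wilson intervals. The productive rates lie between 0.402 and 0.766 and the out-of-frame rates between 5.68 and 8.73, with no overlap.

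TRBV30 and 2 rare V genes were used more often by members. Distinct clonotypes per V gene were united over the libraries of a name, so that one found in several libraries counted once. Members and other productive clonotypes were compared with edgeR's quasi-likelihood test with the name as a block. Of 56 V genes tested 3 were higher among members (5.36%) and 0 lower at an adjusted p below 0.05. Without adjustment, 3 were higher and 4 lower at p below 0.05, and DESeq2 called the same 3 higher and 0 lower.

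Summed over the 8 libraries, TRBV30 was the V gene of 49 members (47 distinct sequences), 4.33% of members against 0.856% of other productive clonotypes. In Amazo it was 3.55% of members at day −5, 3.82% at day −4 and 5.31% at day +3, in Nebula 4.21% at day −5, 3.39% at day −4 and 5.38% at day 0, and in Rocket 6.31% at day −5 and 2.72% at day −4. Among the others it was between 0.455% and 1.06%, so the groups did not overlap and TRBV30 was higher in 8 of 8 libraries. The log2 fold change was 2.24 (SE 0.36, edgeR adjusted p = 4.10e-07, n = 3 names). With 1 name left out in turn it was 2.15 to 2.29, and without Rocket the edgeR adjusted p was 0.0598.

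In TRBV30 the cysteine mostly had the same place. It was at position 3 in 41 of the 49, with TGC in 22 and TGT in 19, and 40 of the codons reached into aligned V bases. At that place 89.8% of the 1700 other TRBV30 clonotypes had tryptophan, whose codon TGG differs from both cysteine codons in the last base, as the printed sequences show. Only 7 of the 49 members had 1 count. Of all 100 junction cysteines at position 3, 40 were in TRBV30. No TRBV30 or TRBV16 clonotype had a second V gene among its assignments, and 0.327% of TRBV5-3 clonotypes did.

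TRBV16 had 11 members (0.972% of members against 0.0876% of others) and TRBV5-3 had 14 (1.24% against 0.147%). TRBV16 had 5 members in Amazo day −4, 3 in Nebula day −5, 2 in Nebula day −4, 1 in Nebula day 0 and 0 in the other 4 libraries. TRBV5-3 had 5 in Amazo day +3, 5 in Nebula day 0, 2 in Nebula day −5, 1 each in Nebula day −4 and Rocket day −4 and 0 in the other 3. Both were thus absent among the members of several libraries. The log2 fold changes were 3.36 (SE 0.72) and 3.00 (SE 0.65), each with an edgeR adjusted p of 0.000211. Both calls were lost when any 1 name was left out, with edgeR adjusted p from 0.137 to 0.341 for TRBV16 and from 0.0636 to 0.398 for TRBV5-3. The cysteines were all junction ones, at positions 6 to 14 in TRBV16 and 6 to 10 in TRBV5-3. These genes also had a high share of nonproductive clonotypes, 34.2% for TRBV16 and 33.3% for TRBV5-3 against 8.48% over all V genes, and 8.48% for TRBV30. Genes that were not called had high shares as well. It was 39.9% for TRBV18 (log2 fold change 1.96, edgeR adjusted p = 0.337) and 21.8% for TRBV23-1 (−0.0243, edgeR adjusted p = 0.938). A link between this share and cysteine use was not tested.

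The lowest adjusted p among V genes less used by members was 0.0528 (edgeR), for TRBV4-2 (log2 fold change −1.09), TRBV4-3 (−1.13) and TRBV13 (−1.66). TRBV4-3 was a smaller share of members than of others in 8 of 8 libraries. With each of the 8 libraries as a block these 3 genes and TRBV5-1 passed the threshold.

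TRBJ2-4 and TRBJ2-3 were the J genes used more often by members, 2 of 13 tested (15.4%), with 0 lower in edgeR. Without adjustment 2 were higher and 1 lower at p below 0.05. TRBJ2-4 was 12.6% of members and 8.97% of others (log2 fold change 0.49, SE 0.12, edgeR adjusted p = 0.00570), and higher in 7 of 8 libraries. TRBJ2-3 was 12.8% of members and 9.89% of others (log2 fold change 0.42, SE 0.12, edgeR adjusted p = 0.0143), and higher in 8 of 8. The ranges over libraries overlapped for both, from 8.92% to 19.7% of members against 8.43% to 10.1% of others for TRBJ2-4 and from 10.2% to 19.5% against 8.51% to 11.2% for TRBJ2-3. Both calls were lost with DESeq2 and with sequences of 1 name only, where the adjusted p was 0.0734 for each with edgeR. With a name left out, the TRBJ2-4 call was lost without Amazo, Nebula or Rocket (edgeR adjusted p = 0.461, 0.338 and 0.133). The TRBJ2-3 call was lost without Amazo (edgeR adjusted p = 0.322) or Nebula (0.892). Without the name as a block both were lost as well (edgeR adjusted p = 0.0977 for TRBJ2-4 and 0.146 for TRBJ2-3).

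In these 2 J genes the cysteine was often seventh from the end of the CDR3. It stood there in 34 of 148 cysteines of TRBJ2-4 members, 23 of them junction codons that reached into J, and in 33 of 149 of TRBJ2-3 members, 24 of which did. In the printed clonotypes without an internal cysteine the codon at that place is AGC, serine, which differs from TGC in the first base. Serine was not the usual residue there in both genes. It was the commonest in other TRBJ2-4 clonotypes, in 28.6% of them, while glycine was the commonest in TRBJ2-3, in 26.6%. The place was not particular to these genes. Seventh from the end stood 13 of 68 cysteines in TRBJ2-2 and 15 of 83 in TRBJ1-4, which were smaller shares of members than of others. In TRBJ2-7 it was 1 of 142.

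**Figure D5:**
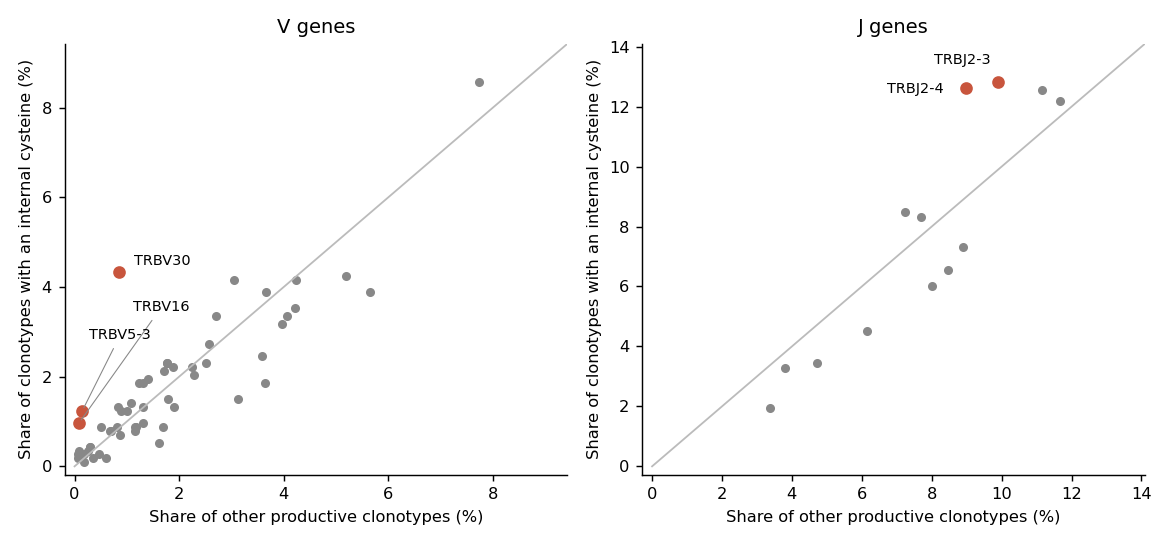
Share of members against share of other productive clonotypes (%) for each V gene and each J gene, summed over the 8 post-infusion libraries, with equal shares on the grey line. The genes named in the panels passed an edgeR adjusted p of 0.05, and TRBV30 lies at 4.33% of members and 0.856% of others.

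The largest members were small clonotypes. The largest in a library held between 0.0105% (Nebula day −5) and 0.0302% (Rocket day −4) of productive counts, while the largest other clonotype held between 2.01% and 8.77%. Counts of a clonotype are not adjusted for the depth of its library. The TRBV7-7/TRBJ2-1 clonotype had 81 counts in Amazo day −5, 78 in Amazo day +3, 107 in Rocket day −5 and 75 in Rocket day −4. In that order these were 0.0243%, 0.0268%, 0.0202% and 0.0302% of productive counts. This clonotype had 0 counts in Amazo day −4 and the 3 Nebula libraries. It was thus in the libraries that share clonotypes across names. TRBV23-1/TRBJ2-7 had 42 counts in Nebula day −5, 9 in day −4 and 7 in day 0 and was in no library of another name. As shares of productive counts these were 0.0105%, 0.0221% and 0.00288%, with the highest share at day −4. TRBV6-1/TRBJ2-3 was likewise in Nebula alone, with 16, 1 and 25 counts at day −5, day −4 and day 0 (0.00401%, 0.00246% and 0.0103%). TRBV5-9/TRBJ1-5 had 18 counts in Amazo day −5, 25 in Amazo day +3, 19 in Rocket day −5 and 4 in Rocket day −4. TRBV3-3/TRBJ2-6 was the 1 sequence found under 3 names, with 10 counts in Amazo day −5, 1 in Nebula day −5, 27 in Rocket day −5 and 10 in Rocket day −4. Of the 1081 sequences 1045 were in 1 library, 36 in 2 or more and 3 in 4, the highest number.

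Few members were found again from day −5 to day −4. These were 2 of 169 (1.18%) in Amazo, 3 of 190 (1.58%) in Nebula and 7 of 111 (6.31%) in Rocket, against 0.792%, 5.14% and 10.9% of other productive clonotypes. The share of members was thus higher in Amazo and lower in Nebula and Rocket. All 12 members found again had a junction cysteine, and of the members with a substituted cysteine 0 of 34, 0 of 66 and 0 of 33 were found again. Of these substituted members 24, 54 and 29 had 1 count. Junction members of 1 count were not found again either (0 of 35, 0 of 44 and 0 of 26). The kinds were not compared at like counts. After matching to the members' count classes at day −5, the difference from other clonotypes was −0.172 percentage points (SD 0.711, n = 3 names, exact permutation p = 0.75).

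No member reached 0.05% of productive counts at day −5 or day −4, the level from which single clonotypes were tested. At that level 53.3% of 120 clonotypes were called lower at day −4 and 46.7% higher in Amazo, 4.76% of 63 lower and 11.1% higher in Nebula, and 5.48% of 73 lower and 0% higher in Rocket. At 0.01% or more, 3 members were tested in Amazo, 3 in Nebula and 2 in Rocket with Fisher's exact test, which with 1 library a time point compares libraries and not conditions. A clonotype entered when it passed that level in either library. One that was high in a single library was thus chosen by the value then compared, so the calls are given as a description only. In Amazo TRBV7-7/TRBJ2-1 went from 81 to 0 counts and TRBV7-3/TRBJ2-4 from 58 to 0, while TRBV15/TRBJ2-2 went from 5 to 58. These are 2 members lower and 1 higher, where 38.8% of 770 clonotypes tested were lower and 61% higher (2-fold change and adjusted p under 0.05 by Fisher's exact test), in the pair of libraries that share few clonotypes. In Nebula TRBV23-1/TRBJ1-4 went from 0 to 7 counts and TRBV6-3/TRBJ1-3 from 0 to 5, against a background of 50% of 1184 called higher and 17.5% lower. In Rocket TRBV5-1/TRBJ2-7 went from 57 to 4 counts (0.0107% to 0.00161% of productive counts), where 27.4% of 361 were called lower and 8.03% higher. TRBV7-7/TRBJ2-1 had 107 counts in Rocket day −5 and 75 in Rocket day −4, libraries of unlike depth. Its share of productive counts was 0.0202% and then 0.0302%, higher at day −4 and with no call.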

How the data were processed

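TRB transcripts of 12 libraries were analysed, 8 of them post-infusion. Per the labels, template-switched cDNA of polyadenylated RNA was enriched for VDJ amplicons by PCR and sequenced on a MiSeq. The authors trimmed reads with Trimmomatic and called clonotypes with MiXCR against known rhesus TRB segments (versions not given in the sources used here). The deposited tables give per clonotype a whole-number count, a clone fraction (count over the table's total) and a lowest quality score of the CDR3. The clone fraction filter that the series text describes has not been applied in these tables. They carry no molecular barcode column, so intervals and limits of a count of 0 (3 counts) cover counting error only. No genome was used, and genes carry no coordinates here.

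Groups and animal names came from the labels, and the name paired libraries. The names shared clonotypes unevenly, and p-values over names or libraries measure only the spread between these samples. The members and lists were chosen with earlier results of these data known. Differences were taken within a library, averaged within a name and tested by exact two-sided sign-flip permutation. V and J gene counts were tested with edgeR 4.0.16 (TMM, quasi-likelihood, Benjamini-Hochberg adjustment, name as replicate block) and with DESeq2 1.42.0 as an alternative, in R 4.3.3, after a test on simulated data. Other steps used Python 3.11.15, numpy 2.4.6, pandas 2.3.3, scipy 1.17.1 and matplotlib 3.10.9. Named genes were those past an adjusted p of 0.05. Named clonotypes were the 10 members with the highest share in any library and the 5 in the most libraries of different names, and those of them the text turns on are described. The printed pairs and gene examples were chosen after their values were seen. Alternatives were thinning to 42695 counts, a minimum of 2 counts, leaving out clonotypes 1 base from a larger one, other normalizations, blocks and libraries, and leaving out each name. Junction-cysteine and junction-position alternatives were added after seeing the data.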

Additional observations from a re-analysis of the deposited data

How the results depend on the processing

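Over the alternatives that did not leave out a name, the main comparisons mostly kept their direction and their side of the threshold. Taking the 8 libraries as separate values brought past it the difference in clonotypes of 1 count (31.0 percentage points), the log2 ratio of mean counts (−1.17) and the difference in clonotypes 1 base from a larger one (14.7, exact permutation p = 0.015625). The day −4 minus day −5 difference in the share of counts turned to 0.00239 percentage points without clonotypes 1 base from a larger one and ranged from −0.0184 to 0.0211 with a name left out. The difference near the loop centre turned to −2.51 within 1 residue of the centre and to −17.5 against junction positions, and was 5.73 with at least 2 counts. The difference in members found again turned to 0.205 for junction members and ranged from −0.552 to 0.153 with a name left out.

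At 0.01% in either library the test of single members called 2 lower and 1 higher in Amazo, 2 higher in Nebula and 1 lower in Rocket. These members were chosen by the values then compared. The paired analysis by name was compared with one without the replicate block. Without it, the difference in the share of clonotypes was −0.168 percentage points (exact permutation p = 0.2, n = 3 against 3), that in counts was −0.00285 (exact permutation p = 1), 1 V gene and 0 J genes were higher and 0 of either lower, and TRBV30 was the V gene (edgeR adjusted p = 0.000524). With a name left out, 0 to 1 V genes were higher and 0 to 1 lower, and 0 to 1 J genes were higher and 0 to 1 lower. V genes lower in members numbered 4 with each library as a block, 2 with at least 2 counts and 1 with junction members only. J genes higher numbered 0 with DESeq2 and 0 with sequences of 1 name only. TRBV30 had a log2 fold change of 2.07 to 2.77 over the 9 alternatives other than leaving out a name and passed the threshold in each. The causes of these changes were not tested. Depth limits the baseline libraries and Nebula day −4 most.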
